A study of Mus musculus with 6 samples.

Results

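The genes described here encode subunits of respiratory complexes I to V, the protein machines of the inner mitochondrial membrane that carry out oxidative phosphorylation. They were chosen by name: every gene whose current symbol begins with Nduf followed by a, b, c, s or v and a digit, is Sdha to Sdhd, or begins with Uqcr, Cox4 to Cox8 or Atp5. Of 87 protein-coding genes with such symbols, 81 lay on a probe set annotated to exactly 1 gene, out of 18193 genes so placed on the array. Complex I had 35 of them, complex II 4, complex III 8, complex IV 17 and complex V 17. The symbol rule follows gene names, so Ndufa4, now known as a subunit of complex IV, and its paralogue Ndufa4l2 are counted under complex I, and Cox7a2l, a factor that joins complexes into supercomplexes, under complex IV.

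Activated neural stem cells, sorted as GFAP::GFP+CD133+EGFR+CD24- cells, were compared with quiescent neural stem cells, sorted as GFAP::GFP+CD133+CD24- cells, on 3 arrays of each kind. Both populations came from the ventricular-subventricular zone (V-SVZ), the stem cell niche along the lateral ventricles, of adult mouse brains. In both, green fluorescent protein was driven by the promoter of GFAP, a gene that astrocytes use too, and CD133 is also found on ependymal cells. The labels call the arrays biological replicates, and neither the animals' ages nor the number pooled for each sort is stated in them.

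Complex I passes electrons from NADH to ubiquinone and complex II passes them from succinate, complex III hands them to cytochrome c, and complex IV to oxygen. Complexes I, III and IV pump protons as they do so, and complex V, the ATP synthase, lets the protons back through a rotating ring of c subunits and makes ATP. In the adult V-SVZ, quiescent stem cells are known for glycolysis and fatty acid oxidation, and oxidative phosphorylation genes are known to increase along the path to neurogenesis.

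Values below are log2 MAS5 signals, each array having been scaled by the authors to the same mean, so a level is relative to all other RNA on that array. A difference is the mean of the activated arrays minus the mean of the quiescent arrays on the log2 scale, with its standard error (SE), and an adjusted p is limma's moderated test with Benjamini-Hochberg adjustment over 11575 tested genes. A gene was called at an adjusted p under 0.05. Of the 81 members, 78 passed the filter on dim genes, a mean log2 signal of at least 6.02 over all 6 arrays; Cox4i2, Cox7b2 and Cox8c did not. A lower signal in these sorted cells can come from fewer cells of a type or from less of an RNA per cell, and these cannot be told apart.

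The arrays themselves differed between the groups in ways that bear on every value. The mean log2 signal of the hybridisation controls was 13.65 to 13.73 on the activated arrays and 14.01 to 14.94 on the quiescent arrays, and background was 4.52 to 4.67 on the activated and 5.45 to 6.10 on the quiescent arrays. The 3′ minus 5′ difference of the Gapdh control probe sets, a sign of RNA length, was 1.19, 1.51 and 1.41 on activated arrays 1 to 3, against 2.59, 2.01 and 1.54 on quiescent arrays 1 to 3. For each of these 3 measures the groups did not overlap, which gives a two-sided exact permutation p of 0.1, the smallest that 3 arrays against 3 can reach. The 3′ minus 5′ difference of the actin control probe sets was -0.11, 0.13 and 0.2 on activated arrays 1 to 3. On quiescent arrays 1 to 3 it was -0.24, 0.01 and 0.07, so here the groups overlapped (two-sided exact permutation p = 0.4). Pearson correlations over all tested genes were 0.919 to 0.925 within the activated group and 0.82 to 0.869 within the quiescent group, and 0.541 to 0.638 between groups. Known markers fit the sorts: 7 of 7 tested activated stem cell markers rose and 10 of 10 astrocyte and quiescent stem cell markers fell. Markers of oligodendrocytes fell in 7 of 7, of pericytes in 4 of 4, of endothelial cells in 3 of 3 and of ependymal cells in 4 of 5 tested genes, while 3 of 7 neuroblast and 2 of 4 neuron markers rose and the 1 tested microglial marker was not called. The log2 of the summed oligodendrocyte markers was 11.01 to 12.38 on the activated arrays and 13.91 to 15.88 on the quiescent arrays. For ependymal markers this sum was 9.02 to 9.47 on activated and 12.07 to 12.78 on quiescent arrays, for endothelial markers 6.65 to 7.23 and 9.71 to 11.56, for pericyte markers 7.99 to 9.37 and 12.27 to 13.08, and for neuroblast markers 14.29 to 14.63 and 11.75 to 13.02, activated arrays first in each. For the 8 microglial markers this sum was 7.26 to 7.67 on the activated arrays and 8.61 to 9.55 on the quiescent arrays. Of these 8 markers, 2 were at background on all 6 arrays. Of the endothelial markers 4 of 7, and of the pericyte markers 3 of 7, were at background on all 3 activated arrays. No endothelial or pericyte marker was so on all 3 quiescent arrays. The part of RNA quality and of these other cell types in the differences below was not tested.

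Of the 78 tested subunits, 21 rose in activated cells (26.9%) and 3 fell (3.8%), while 54 were not called. Among all tested genes, 17.3% rose and 17.6% fell. The median difference was 0.42 over the tested subunits and 0.01 over all tested genes, and 57 of the 78 subunits had a positive difference. All 3 activated arrays stood above all 3 quiescent arrays for 26 subunits (33.3%) and below them for 8 (10.3%), against 25.1% and 25.5% of all tested genes. The 21 subunits were 6 of complex I, 3 of complex III, 4 of complex IV and 8 of complex V, and none of complex II. These counts are sensitive to single arrays: 12 subunits were called higher without activated array 1 or without activated array 3, 13 without quiescent array 2, 14 without activated array 2, 19 without quiescent array 1 and 26 without quiescent array 3. The count of lower subunits was 0 without activated array 3, 5 without quiescent array 3, and 1 when any other array was left out. Scaling to the hybridisation controls instead gave 39 higher and 0 lower subunits, and a fit with no variance trend gave 13 higher and 2 lower.

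**Figure D1:**
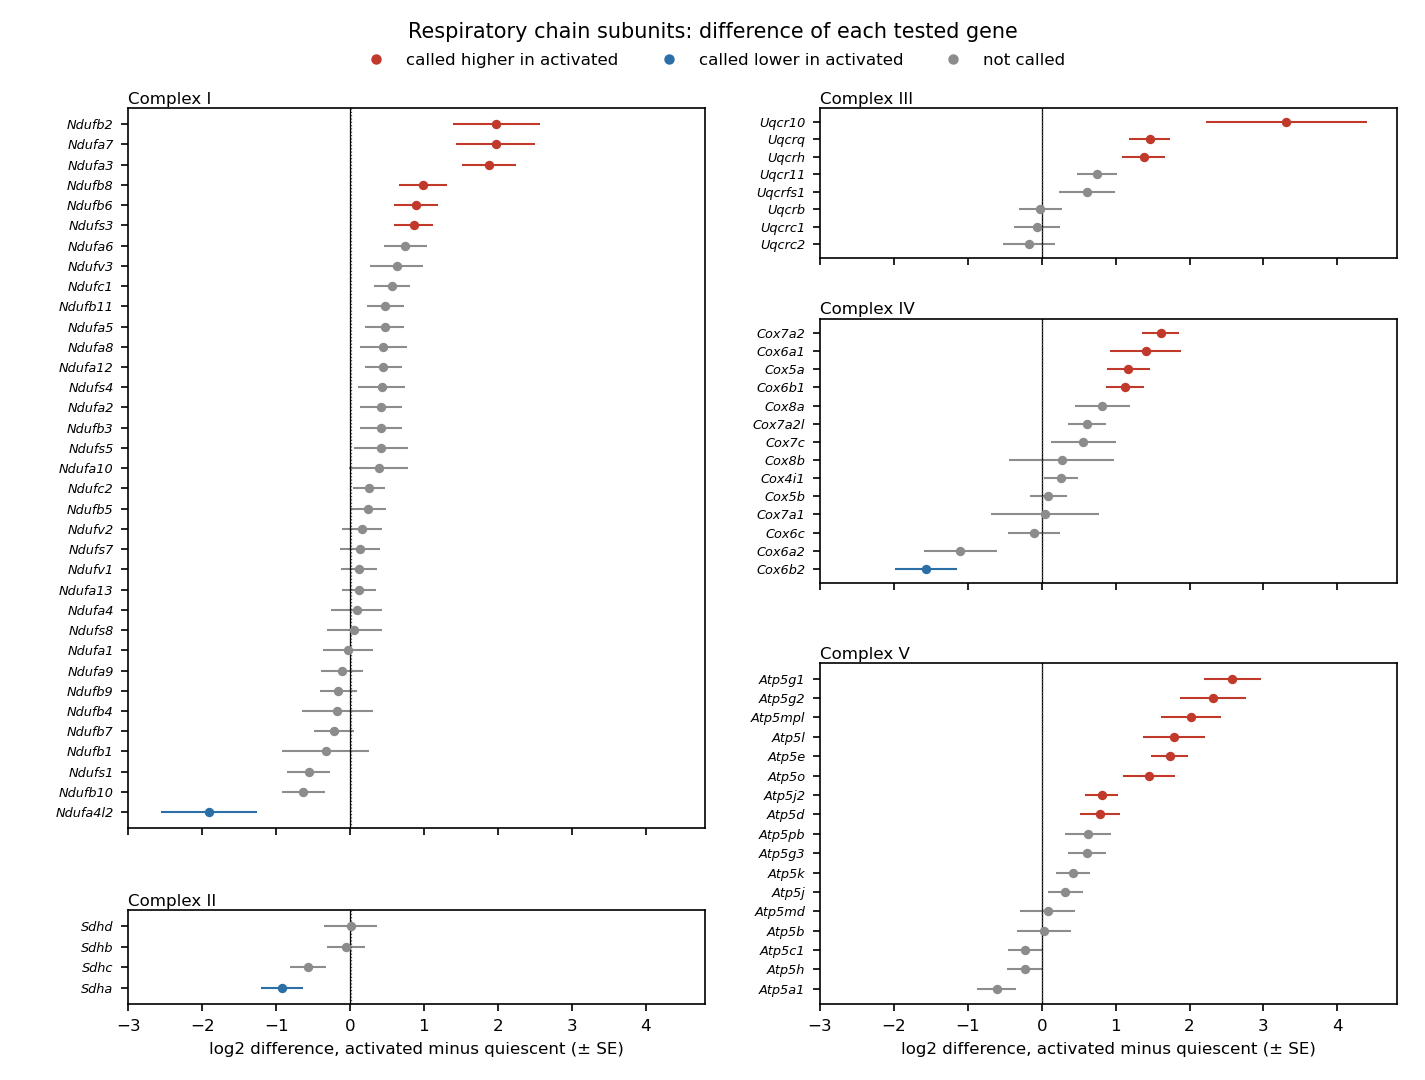
Each point is 1 tested subunit and its log2 difference, activated minus quiescent, on the horizontal axis, with a bar of 1 SE to each side, for the 78 tested subunits in 5 panels by complex; the dotted line is the median of all tested genes. Red points are the 21 called higher, blue points the 3 called lower (Ndufa4l2, Sdha and Cox6b2), and grey points the 54 not called; complex V has 8 red points of 17 and complex II none.

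Complex V, the ATP synthase, had the most called subunits: 8 of 17 rose (47.1%), none fell, and the median difference was 0.63. The subunits that rose lie in every part of the enzyme, but the pair of catalytic head subunits was not called. Atp5b, the beta subunit that holds the catalytic sites, had a difference of 0.03. Atp5a1, the alpha subunit, had one of -0.61 (adjusted p = 0.0969), with all 3 activated arrays below all 3 quiescent arrays. The dimmer probe sets of Atp5a1 disagreed, with differences of -0.66 and 1.13. The latter had 12.38, 12.62 and 12.45 on the activated arrays, against 11.85, 10.59 and 11.64 on the quiescent arrays. Without quiescent array 3, 10 complex V subunits were called higher and 1, Atp5a1, lower, and the median was 0.83. With any other array left out, 6 or 7 were called higher and none lower.

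The c ring, the proton-driven rotor, is made of 1 protein whose mature form is the same whichever of 3 genes encodes it. Atp5g1, a gene of chromosome 11, had signals of 11.92, 11.52 and 12.04 on activated arrays 1 to 3, against 8.76, 8.91 and 10.07 on quiescent arrays 1 to 3. Atp5g2 had signals of 12.45, 12.26 and 12.21 on the activated arrays, against 9.48, 9.30 and 11.19 on the quiescent arrays. For both genes every activated array stood above every quiescent array, and quiescent array 3 was the nearest to them. Atp5g1 rose by 2.58 ± 0.38 (SE, n = 3 arrays per group, adjusted p = 0.000602), a 5.98-fold change, and Atp5g2 by 2.32 ± 0.45 (adjusted p = 0.0029), a 4.99-fold change. Atp5g3 had signals of 13.46, 13.48 and 13.16 on the activated arrays, against 12.44, 12.63 and 13.21 on the quiescent arrays. Here the groups overlapped, through quiescent array 3, and the difference of 0.61 ± 0.26 was not called (adjusted p = 0.0957). Whether the 3 paralogues differ in their response was not tested. Dimmer probe sets of both called genes had negative differences, of -2.04 for that of Atp5g1 and of -0.27 and -0.41 for those of Atp5g2. The Atp5g2 probe set at -0.41 was at or below background on all 6 arrays. Read from its dimmer probe set alone, Atp5g1 was called lower (adjusted p = 0.0357). The mean over all probe sets was 0.27 for Atp5g1 and 0.55 for Atp5g2, neither of which was called.

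The promoters of the c ring genes are shown because the 3 genes make the same mature protein and 2 of them were called. Each window runs from 250 bases before to 50 bases after the gene's start, 5′ to 3′ along the gene, from RefSeq on GRCm38.p6, where all 3 genes lie on the minus strand: chr11:96075582-96075881 for Atp5g1, chr15:102670998-102671297 for Atp5g2 and chr2:73911277-73911576 for Atp5g3. Capitals mark the letters of 3 motifs known from respiratory chain promoters: CCGGAAG for ETS factors such as GABP, CGCATGCG for NRF1 and AAGATGGC for YY1, each searched on both strands, so that CTTCCGG on the printed strand is an ETS match. None of the 3 words contains another.
Atp5g1: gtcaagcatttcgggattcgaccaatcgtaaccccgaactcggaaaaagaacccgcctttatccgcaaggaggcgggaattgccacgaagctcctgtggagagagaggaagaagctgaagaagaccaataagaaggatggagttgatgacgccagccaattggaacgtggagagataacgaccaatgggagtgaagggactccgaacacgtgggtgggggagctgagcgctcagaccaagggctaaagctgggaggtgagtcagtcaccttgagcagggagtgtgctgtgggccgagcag
Atp5g2: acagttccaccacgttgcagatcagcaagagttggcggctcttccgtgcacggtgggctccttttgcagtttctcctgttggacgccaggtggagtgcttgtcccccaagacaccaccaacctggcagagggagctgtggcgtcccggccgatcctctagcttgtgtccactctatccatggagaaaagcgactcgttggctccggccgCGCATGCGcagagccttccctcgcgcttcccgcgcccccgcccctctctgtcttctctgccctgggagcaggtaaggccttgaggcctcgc
Atp5g3: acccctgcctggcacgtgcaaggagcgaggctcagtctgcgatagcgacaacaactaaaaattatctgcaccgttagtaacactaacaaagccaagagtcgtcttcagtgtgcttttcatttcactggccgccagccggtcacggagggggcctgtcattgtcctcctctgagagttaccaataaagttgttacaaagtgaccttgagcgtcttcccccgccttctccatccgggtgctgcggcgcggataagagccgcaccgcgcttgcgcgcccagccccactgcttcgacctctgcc
The Atp5g2 window holds 1 NRF1 match, whose first base is at position -41 relative to the start of the gene. None of the 3 words is in the Atp5g1 or Atp5g3 window, which says only that these letters are not there.

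A promoter window was found in RefSeq for 66 of the 81 subunits. Of these, 25.8% held the ETS word, 12.1% the NRF1 word and 13.6% the YY1 word. Among the tested genes with a window, 9431 in number, the shares were 20.3%, 4.6% and 5.4%, and among all 27025 genes with a RefSeq window 9.9%, 2.1% and 3.2%. Of the 19 subunits called higher that had a window, 7 held the ETS word (36.8%), 3 the NRF1 word (15.8%) and 3 the YY1 word (15.8%). Of the 44 tested subunits not called, 10 held the ETS word (22.7%), 5 the NRF1 word (11.4%) and 6 the YY1 word (13.6%). A match is a description of letters and was not tested as a binding site.

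In the central stalk, which turns with the c ring inside the catalytic head, the 2 smallest subunits rose. Atp5e, the epsilon subunit, had signals of 13.48, 13.23 and 12.98 on the activated arrays, against 11.43, 11.31 and 11.76 on the quiescent arrays. The groups lay far apart and the quiescent arrays close together, and its difference of 1.73 ± 0.25 had the lowest adjusted p of any subunit (0.000558). Atp5d, the delta subunit, had signals of 12.48, 12.91 and 12.74 on the activated arrays, against 11.55, 11.90 and 12.29 on the quiescent arrays. It rose by 0.79 ± 0.27 (adjusted p = 0.0408), with its highest quiescent array just below its lowest activated array. Atp5c1, the gamma subunit that forms the shaft, had a difference of -0.22 and overlapping groups. Its dimmer probe set had a difference of -3.15. That probe set had 7.97, 7.63 and 8.5 on the activated arrays, against 12.31, 10.96 and 10.28 on the quiescent arrays. Atp5c1 was called lower with the mean of its probe sets. It was also called lower without probe sets whose names mark shared or multiple transcripts.

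In the peripheral stalk, which holds the head still, 1 of 4 subunits rose. Atp5o, the oligomycin sensitivity-conferring protein that ties the stalk to the head, had signals of 12.98, 12.88 and 13.24 on the activated arrays, against 10.92, 11.43 and 12.41 on the quiescent arrays. Its groups did not overlap and it rose by 1.45 ± 0.35 (adjusted p = 0.0098). Atp5pb, Atp5h and Atp5j, the other stalk subunits, were not called, with differences of 0.63, -0.23 and 0.32.

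Among the small subunits of the membrane part, several of which hold ATP synthase dimers together, 3 of 5 rose. Atp5mpl, the 6.8 kDa proteolipid, had signals of 13.14, 12.88 and 12.81 on the activated arrays, against 10.11, 10.76 and 11.91 on the quiescent arrays. Atp5l, subunit g, had 12.28, 11.87 and 11.86 on the activated arrays, against 9.76, 9.61 and 11.28 on the quiescent arrays. Atp5j2, subunit f, had 13.26, 13.13 and 13.30 on the activated arrays, against 12.28, 12.58 and 12.41 on the quiescent arrays. In all 3 the groups were apart. They rose by 2.02 ± 0.40 for Atp5mpl (adjusted p = 0.0034), 1.79 ± 0.42 for Atp5l (adjusted p = 0.0081) and 0.81 ± 0.22 for Atp5j2 (adjusted p = 0.0170). Atp5k, subunit e, was not called at 0.42 although all its activated arrays lay above its quiescent arrays, and Atp5md, a dimer factor, had a difference of 0.08. Atp5j2 lost its call without any 1 of the activated arrays, and Atp5d was called only without quiescent array 3; the 6 other complex V calls held whichever array was left out.

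Complex III, ubiquinol-cytochrome c reductase, showed a rise in 3 of its 8 subunits (37.5%), none fell, and the median difference was 0.68. All 3 are small subunits without a redox centre. Uqcrq, the small subunit VIII, had signals of 12.04, 11.49 and 11.49 on the activated arrays, against 10.08, 10.30 and 10.26 on the quiescent arrays. Uqcrh, the hinge protein that helps cytochrome c dock, had 13.03, 12.70 and 12.22 on the activated arrays, against 10.97, 11.20 and 11.62 on the quiescent arrays. Neither overlapped between groups, and the quiescent arrays of Uqcrq lay closer together than those of any other called subunit. Uqcrq rose by 1.46 ± 0.28 (adjusted p = 0.0027) and Uqcrh by 1.38 ± 0.29 (adjusted p = 0.0048).

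Uqcr10, a small membrane-spanning subunit, had the largest difference of the tested subunits and the largest SE. Its signals were 12.16, 12.11 and 11.97 on the activated arrays, against 5.61, 9.22 and 11.48 on the quiescent arrays. The activated arrays were nearly equal, while the quiescent arrays ran from below that array's background to just under the activated level. Uqcr10 rose by 3.31 ± 1.09 (adjusted p = 0.0369), and by 1.73 ± 0.55 without quiescent array 1 (adjusted p = 0.0449). The call was lost without quiescent array 2 or without any 1 of the activated arrays. Its dimmer probe sets had differences of 0.53 and -1.45, the latter at or below background on 5 of 6 arrays. The mean over its probe sets, 0.80, was not called (adjusted p = 0.3439). The electron-carrying and core subunits were not called: Uqcrfs1, the Rieske iron-sulphur protein, had a difference of 0.61, and Uqcrc1 and Uqcrc2, the core proteins, had -0.06 and -0.17. Uqcr11, another small subunit, came close at 0.75 (adjusted p = 0.0511), with all activated arrays above all quiescent arrays. Uqcrq had 3 dimmer probe sets, with differences of -1.62, -1.85 and 0.11. The one at -1.85 was at or below background on all 6 arrays, and the one at -1.62 on 2 arrays. The mean over the probe sets of Uqcrq was -0.48 and was not called (adjusted p = 0.5232).

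Complex IV, cytochrome c oxidase, showed a rise in 4 of 14 tested subunits (28.6%) and a fall in 1, with a median difference of 0.26 over the 17 on the array. Its nuclear subunits come in widely used and tissue-restricted versions. The 4 that rose are all widely used ones, and the 1 that fell, Cox6b2, is known from testis. The 4 were also bright and Cox6b2 dimmer. Over all tested genes the median difference was -0.39 with no filter on dim genes and 0.14 with a filter at the 60th percentile. The part of brightness was not tested. Cox7a2, the widely used form of subunit 7a, had signals of 13.98, 13.78 and 14.25 on the activated arrays, against 12.29, 12.17 and 12.73 on the quiescent arrays. Cox5a, a subunit on the matrix side, had 13.55, 13.28 and 13.21 on the activated arrays, against 11.80, 11.99 and 12.75 on the quiescent arrays. Both were separated between groups and rose, Cox7a2 by 1.61 ± 0.25 (adjusted p = 0.00082) and Cox5a by 1.17 ± 0.29 (adjusted p = 0.0100). Other widely used subunits were not called, among them Cox5b, which binds zinc, at 0.09, Cox6c at -0.10 and Cox7c at 0.56. Leaving out probe sets whose names mark shared or multiple transcripts turned the median of the complex to -0.03. With 1 array left out that median was 0.08 without quiescent array 2, 0.12 without activated array 3, 0.19 without activated array 1, 0.27 without quiescent array 1, 0.36 without activated array 2 and 0.40 without quiescent array 3, and quantile normalization gave 0.51.

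The paralogous subunits of complex IV had differences in both directions. Cox6b1, which faces the intermembrane space and helps join the dimer, had signals of 13.35, 13.39 and 13.30 on the activated arrays, against 11.90, 12.07 and 12.66 on the quiescent arrays. Cox6b2, its testis form, had 7.89, 8.0 and 7.30 on the activated arrays, against 9.66, 8.97 and 9.28 on the quiescent arrays. The activated arrays lay above the quiescent ones for Cox6b1 and below them for Cox6b2. Cox6b1 rose by 1.13 ± 0.26 (adjusted p = 0.0068), and Cox6b2 fell by 1.57 on the log2 scale (SE 0.42, adjusted p = 0.0148), a call lost without activated array 3 (adjusted p = 0.0576) and when arrays were scaled to their hybridisation controls (-0.93, adjusted p = 0.1656). Their promoter windows are shown because the pair moved in opposite directions; both lie on the minus strand of chromosome 7 of GRCm38.p6, at chr7:30626065-30626364 for Cox6b1 and chr7:4753045-4753344 for Cox6b2, from RefSeq, with the same 3 motifs in capitals.
Cox6b1: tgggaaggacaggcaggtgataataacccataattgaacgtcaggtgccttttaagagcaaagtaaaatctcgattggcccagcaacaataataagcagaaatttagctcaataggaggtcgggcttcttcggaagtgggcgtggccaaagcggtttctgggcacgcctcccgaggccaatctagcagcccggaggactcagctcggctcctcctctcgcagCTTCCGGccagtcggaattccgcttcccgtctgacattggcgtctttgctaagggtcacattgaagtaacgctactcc
Cox6b2: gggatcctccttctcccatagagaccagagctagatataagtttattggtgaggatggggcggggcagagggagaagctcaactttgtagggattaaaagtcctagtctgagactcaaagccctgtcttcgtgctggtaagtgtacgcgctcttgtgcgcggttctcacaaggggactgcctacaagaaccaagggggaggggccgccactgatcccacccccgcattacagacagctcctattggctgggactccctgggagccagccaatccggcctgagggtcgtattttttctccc
The Cox6b1 window has 1 ETS match, whose first base is at position -28, and the Cox6b2 window has none of the 3 words.

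Cox6a1, the widely used form of subunit 6a, had signals of 14.12, 13.53 and 13.85 on the activated arrays, against 11.65, 11.82 and 13.79 on the quiescent arrays. Cox6a2, its heart and muscle form, had 7.24, 6.46 and 7.60 on the activated arrays, against 8.28, 8.05 and 8.27 on the quiescent arrays. For Cox6a1 quiescent array 3 reached into the activated range, and for Cox6a2 every activated array lay below every quiescent array. Cox6a1 rose by 1.41 ± 0.48 (adjusted p = 0.0439), a call that held in 1 of the 6 fits leaving out an array, the one without quiescent array 3. Cox6a2 had a difference of -1.10 and was not called (adjusted p = 0.1060).

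For subunit 4, Cox4i1 had signals of 12.92, 12.91 and 12.50 on the activated arrays, against 12.64, 12.51 and 12.41 on the quiescent arrays. Its groups overlapped and its difference of 0.26 was not called. Cox4i2, the form known from lung and low oxygen, had signals of 4.25, 2.77 and 2.43 on the activated arrays, against 7.43, 4.30 and 8.06 on the quiescent arrays. It was at background on all 3 activated arrays and above it on 2 of 3 quiescent arrays, and it was too dim to be tested. Quiescent array 2, at 4.30, was at background too, so the fold change has no firm lower bound.

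For subunits 7a and 8 the tissue-restricted forms were dim in both groups. Cox7a1, the heart and muscle form, had signals of 6.22, 5.50 and 6.71 on the activated arrays, against 5.34, 5.68 and 7.29 on the quiescent arrays. Cox7a2l had 12.80, 12.74 and 12.64 on the activated arrays, against 12.45, 12.21 and 11.69 on the quiescent arrays. Cox7a1 overlapped between groups at a difference of 0.04, and Cox7a2l had activated arrays all above the quiescent ones but was not called at 0.61 (adjusted p = 0.0915). Cox8a, the widely used form of subunit 8, had signals of 11.44, 11.27 and 11.44 on the activated arrays, against 10.71, 9.73 and 11.25 on the quiescent arrays. Its groups did not overlap, by a small margin at quiescent array 3, and its difference of 0.82 was not called (adjusted p = 0.1094). Cox8b, the muscle form, had signals of 6.54, 5.52 and 7.89 on the activated arrays, against 6.24, 5.98 and 6.91 on the quiescent arrays. Cox8c, known from testis, had 3.40, 3.6 and 5.45 on the activated arrays, against 6.40, 6.39 and 5.0 on the quiescent arrays. Both overlapped between groups; Cox8b had a difference of 0.27 and Cox8c was too dim to be tested.

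**Figure D2:**
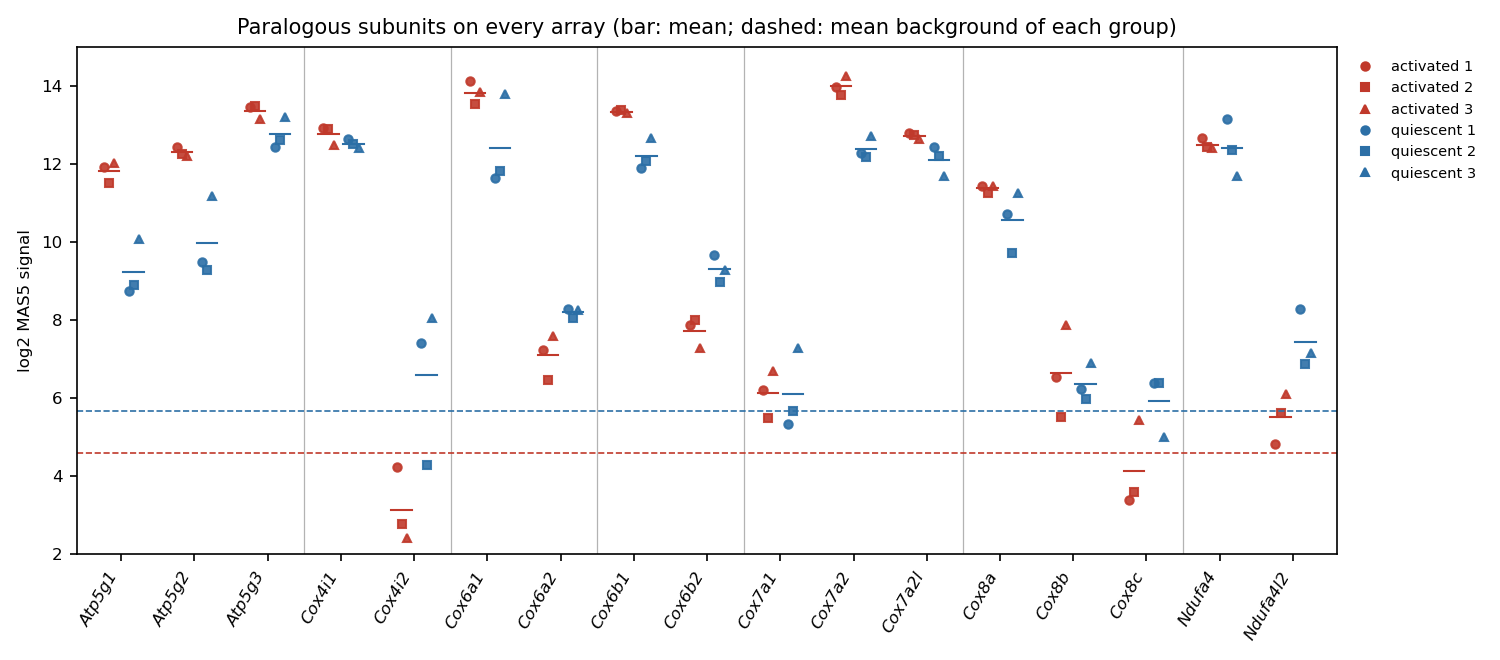
Log2 MAS5 signal (vertical axis) of 17 paralogous subunits on every array, activated arrays in red left of quiescent arrays in blue, with marker shapes for arrays 1 to 3, short bars for group means and dashed lines for the mean background of each group. Atp5g1, Atp5g2, Cox6b1, Cox7a2, Cox7a2l and Cox8a have all red points above all blue points, Cox4i2, Cox6a2, Cox6b2 and Ndufa4l2 have all red points below, and levels are not comparable between genes.

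Complex I, NADH dehydrogenase, showed a rise in 6 of its 35 subunits (17.1%), near the 17.3% of all tested genes, and a fall in 1, with a median difference of 0.39. By structure, 2 of 7 subunits on the array rose in the Q module, where ubiquinone is reduced, 3 of 11 in the distal membrane arm and 1 of 8 in the proximal arm, and none of 7 in the N module, where NADH is oxidised. The medians of these parts were 0.47 for the Q module, 0.25 for the distal arm, 0.41 for the proximal arm and 0.42 for the N module. Whether the parts differ was not tested. Complex I is the most sensitive to single arrays: 1 subunit was called higher without activated array 1, without activated array 3 or without quiescent array 2, 3 without activated array 2, 5 without quiescent array 1 and 7 without quiescent array 3. The median was 0.25 without activated array 3 and 0.22 without quiescent array 3.

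Ndufa3, an accessory subunit of the proximal membrane arm, was the complex I call that held whichever array was left out. Its signals were 13.03, 13.05 and 13.07 on the activated arrays, against 10.79, 10.59 and 12.14 on the quiescent arrays. The activated arrays were nearly identical, the groups were apart, and it rose by 1.88 ± 0.37 (adjusted p = 0.0035). In the Q module, Ndufa7, an accessory subunit, had 11.84, 11.50 and 11.75 on the activated arrays, against 8.55, 9.45 and 11.16 on the quiescent arrays. Ndufs3, a core subunit of the same module, had 12.07, 11.85 and 11.88 on the activated arrays, against 11.12, 10.74 and 11.37 on the quiescent arrays. Both were separated between groups, and they rose by 1.97 ± 0.54 (adjusted p = 0.0168) for Ndufa7 and by 0.86 ± 0.26 (adjusted p = 0.0282) for Ndufs3. All 4 other probe sets of Ndufa7 also had positive differences, of 1.49 to 2.58.

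The distal membrane arm, farthest from the site of NADH oxidation, had 3 accessory subunits that rose. Ndufb2 had signals of 11.66, 11.04 and 11.66 on the activated arrays, against 8.50, 8.79 and 11.12 on the quiescent arrays. Ndufb8 had 12, 12.20 and 12.07 on the activated arrays, against 10.68, 10.83 and 11.80 on the quiescent arrays. Ndufb6 had 11.68, 11.92 and 12.19 on the activated arrays, against 11.16, 10.53 and 11.42 on the quiescent arrays. The groups were apart for Ndufb8 and Ndufb6, and overlapped for Ndufb2, whose quiescent array 3 exceeded activated array 2. Ndufb2 rose by 1.98 ± 0.59 (adjusted p = 0.0247), Ndufb8 by 0.99 ± 0.32 (adjusted p = 0.0343) and Ndufb6 by 0.89 ± 0.30 (adjusted p = 0.0406). A dimmer probe set of Ndufb2 had a difference of -1.47, and a second probe set of Ndufb6, of nearly equal brightness, one of 0.22.

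Ndufa4l2, a paralogue of Ndufa4 known from cells in low oxygen, was the subunit counted under complex I that fell. Its signals were 4.84, 5.63 and 6.10 on the activated arrays, against 8.29, 6.88 and 7.15 on the quiescent arrays. All activated arrays lay below all quiescent arrays, and it fell by 1.91 on the log2 scale (SE 0.65, adjusted p = 0.0425). On activated array 1 the signal of 4.84 lay just above that array's background of 4.67. The call was lost whichever array was left out, at differences of -1.49 to -2.20. Among other alternatives, it was also lost with quantile normalization (-1.25, adjusted p = 0.1998) and scaling to the hybridisation controls (-1.27, adjusted p = 0.1663). Ndufa4 had signals of 12.66, 12.44 and 12.40 on the activated arrays, against 13.15, 12.36 and 11.70 on the quiescent arrays, which overlapped at a difference of 0.09.

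The other 28 complex I subunits were not called. Their differences ran from -0.63 for Ndufb10, of the distal arm, to 0.75 for Ndufa6, of the Q module. Ndufa6, Ndufa12 and Ndufc1 had activated arrays all above quiescent arrays, and Ndufb10 and Ndufs1, the largest subunit of the N module, had them all below. The flavoprotein subunits Ndufv1 and Ndufv2, which take up the electrons of NADH, had differences of 0.12 and 0.16. The iron-sulphur subunits Ndufs7 and Ndufs8 had 0.14 and 0.06. Other probe sets of Ndufv2, nearly as bright, had differences of 0.86 and 0.80. Over the dimmer probe sets of all these uncalled subunits, differences ran from -0.84 (Ndufb9) to 1.88 (Ndufc1). Ndufb5, Ndufb7, Ndufb11 and Ndufc1 were called higher with the mean of all probe sets. They were also called higher without probe sets whose names mark shared or multiple transcripts.

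Complex II, succinate dehydrogenase, is the only respiratory complex that is also an enzyme of the tricarboxylic acid cycle, and none of its 4 subunits rose. The median difference was -0.31, which turned to 0.33 with scaling to the hybridisation controls, a scaling that moved the median of all tested genes to 0.66. Sdha, the flavoprotein that oxidises succinate, had signals of 12.27, 12.41 and 12.26 on the activated arrays, against 13.75, 13.20 and 12.75 on the quiescent arrays. Sdhc, a membrane anchor, had 11.64, 11.79 and 11.65 on the activated arrays, against 12.46, 12.22 and 12.12 on the quiescent arrays. For both, every activated array lay below every quiescent array. Sdha fell by 0.92 on the log2 scale (SE 0.28, adjusted p = 0.0269), and Sdhc was not called at -0.57 (adjusted p = 0.0838).

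The other pair did not separate. Sdhb, the iron-sulphur subunit, had signals of 11.31, 11.94 and 11.58 on the activated arrays, against 11.47, 11.72 and 11.79 on the quiescent arrays, at a difference of -0.05. Sdhd, the second membrane anchor, had 11.50, 12.20 and 11.65 on the activated arrays, against 11.04, 11.91 and 12.35 on the quiescent arrays, at a difference of 0.01. The Sdha call was lost without any 1 array other than quiescent array 3, at differences of -0.66 to -0.97. It was also lost with scaling to the hybridisation controls (-0.28, adjusted p = 0.4827) and with no variance trend (adjusted p = 0.0797). Without probe sets whose names mark shared or multiple transcripts, Sdha had a difference of -0.35 (adjusted p = 0.3278). Its dimmest probe sets had differences of -3.01 and -3.47, and were at or below background on 1 and 2 of the 6 arrays. Without quiescent array 3, 2 complex II subunits, Sdha and Sdhc, were called lower.

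**Figure D3:**
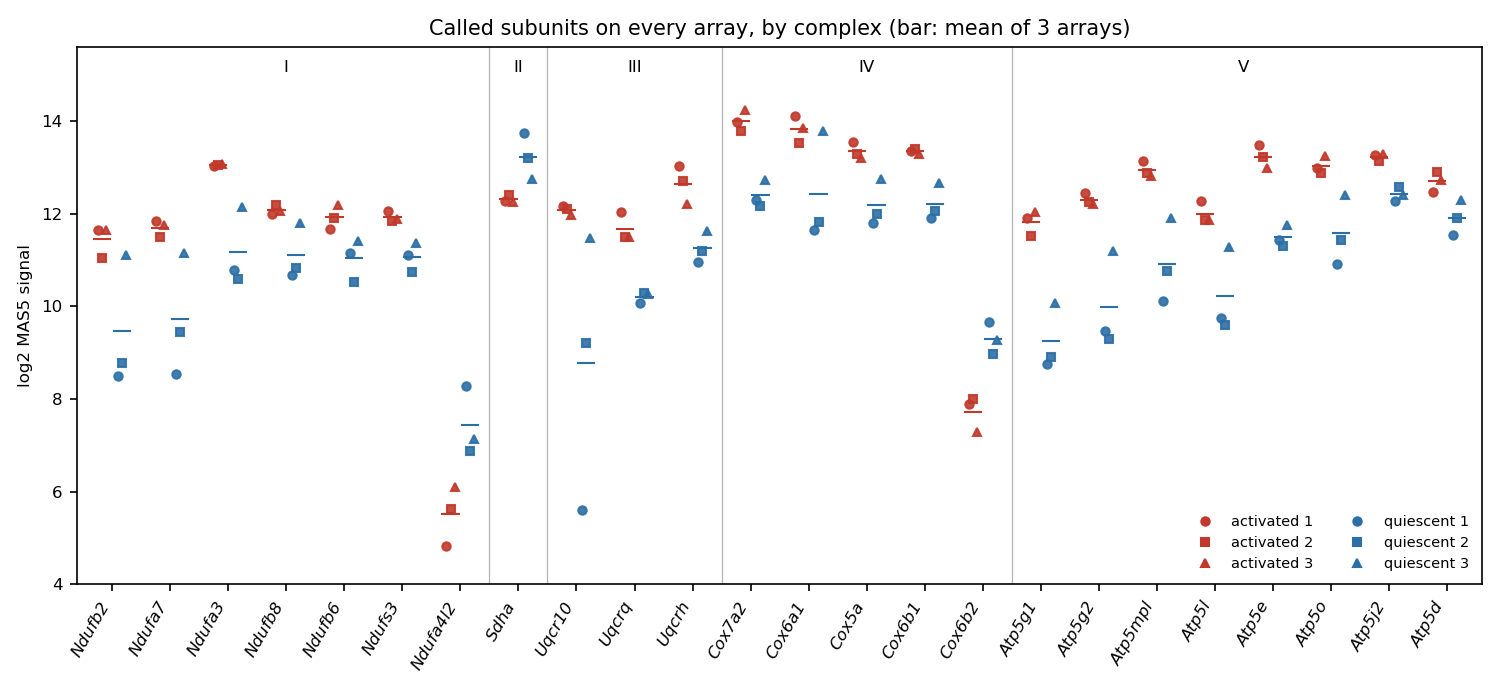
Log2 MAS5 signal (vertical axis) of the 24 called subunits on every array, ordered by complex, with activated arrays in red left of quiescent arrays in blue, marker shapes for arrays 1 to 3 and short bars for group means. Ndufa4l2, Sdha and Cox6b2 have red points below blue points, the other 21 have red means above blue means, and red and blue points overlap for Ndufb2 and Cox6a1.

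The 21 subunits that rose share a pattern among the quiescent arrays that the rule did not use. Quiescent array 3 was the highest of the 3 quiescent arrays for 19 of them (90.5%), against 46.4% of all 2004 genes called higher. The activated mean exceeded quiescent arrays 1, 2 and 3 by a median of 1.80, 1.84 and 0.69. Over all 2004 genes called higher these medians were 2.05, 1.77 and 1.53. For 14 of the 21 subunits quiescent array 3 was within 1 log2 unit of the activated mean, against 3 subunits for quiescent array 1 and 2 for quiescent array 2. Among all 2004 genes called higher the counts were 446 for quiescent array 3, 231 for array 1 and 298 for array 2. The median range of the 3 arrays was 0.36 in the activated and 1.12 in the quiescent group for the 21 subunits. It was 0.38 in the activated and 0.76 in the quiescent group for all 78 tested subunits. For all tested genes it was 0.67 in the activated and 1.00 in the quiescent group. Quiescent array 3 also had the lowest Gapdh 3′ minus 5′ difference of its group, 1.54 beside 1.51 on activated array 2. Its actin 3′ minus 5′ difference, 0.07, was the highest of its group. The part of these measures in the pattern was not tested.

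**Figure D4:**
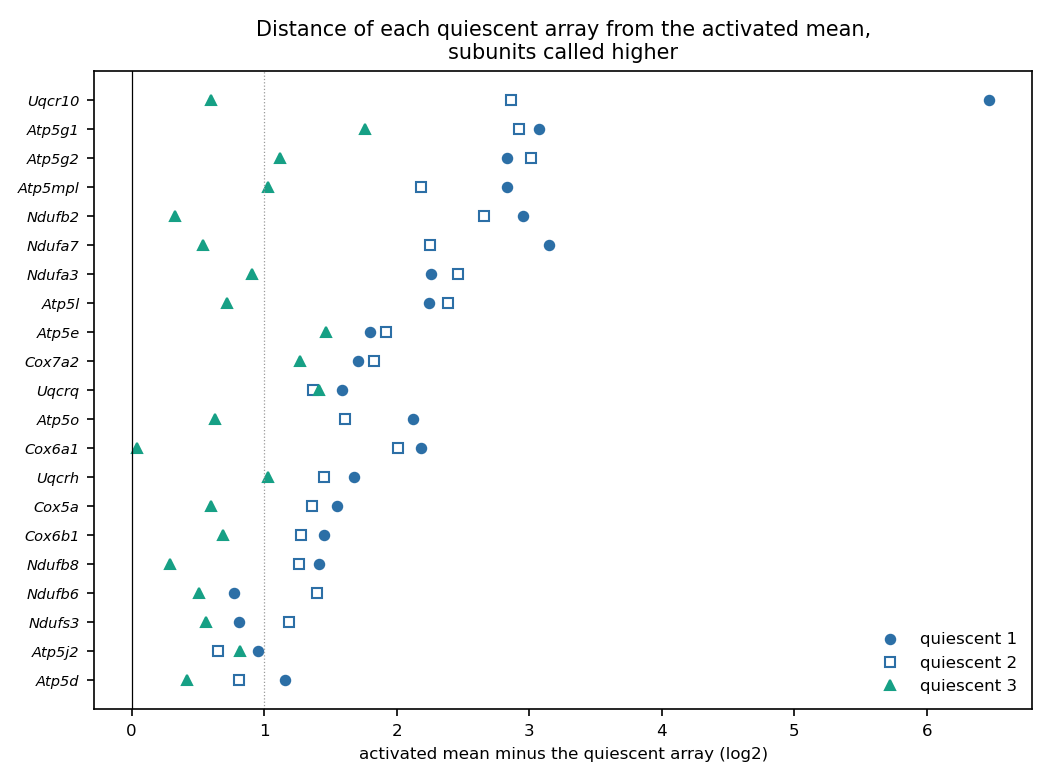
For each of the 21 subunits called higher (rows), the activated mean minus the log2 signal of each quiescent array (horizontal axis); the dotted line marks 1 log2 unit. Quiescent array 3 lies nearest to the activated mean, at 0, in 19 rows and within 1 unit of it in 14.

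Genes around the respiratory chain were read from lists, and the members of each list were described by counts. Among 12 tested genes of the respiratory chain with other names, 4 rose and 2 fell, against 17.3% and 17.6% of all tested genes. The share that fell was thus close to that of all tested genes. The median difference was 0.63, and the called genes below are given as single genes. Atpif1, the inhibitor of ATP hydrolysis by complex V, rose by 1.64 ± 0.30 (adjusted p = 0.0020), Ndufab1, the acyl carrier protein that is part of complex I, by 1.42 ± 0.38 (adjusted p = 0.0155) and Cmc1, which acts in complex IV assembly, by 1.40 ± 0.42 (adjusted p = 0.0249). Sqor, sulphide quinone oxidoreductase, fell by 2.82 on the log2 scale (SE 0.49, adjusted p = 0.0017) and Gpd2, mitochondrial glycerol-3-phosphate dehydrogenase, by 1.96 (SE 0.35, adjusted p = 0.0018). Other enzymes of the list that also pass electrons to ubiquinone were not called: Dhodh, dihydroorotate dehydrogenase, had a difference of 1.33 (adjusted p = 0.0976), and Etfdh, which takes electrons from fatty acid oxidation, one of -0.57 (adjusted p = 0.1318).

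Of 46 tested assembly factors, 6 rose and 1 fell, both smaller shares than the 17.3% and 17.6% of all tested genes, and the median difference was 0.33. The called factors with the largest differences are given as single genes. Uqcc2, needed for complex III, rose by 3.03 ± 0.75 (adjusted p = 0.0108), Cox18, which inserts a complex IV subunit into the membrane, by 1.96 ± 0.60 (adjusted p = 0.0274) and Bcs1l, which places the Rieske protein in complex III, by 1.78 ± 0.61 (adjusted p = 0.0436). Ndufaf1, an assembly factor of complex I, fell by 1.42 on the log2 scale (SE 0.49, adjusted p = 0.0427). Of 17 tested genes of the tricarboxylic acid cycle and pyruvate dehydrogenase, 1 rose and none fell, also smaller shares than those of all tested genes, with a median of -0.08, and the 1 was Ogdh, a subunit of 2-oxoglutarate dehydrogenase, at 1.27 ± 0.44 (adjusted p = 0.0453).

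Of 19 tested regulators of mitochondrial and respiratory gene transcription, 2 rose and 1 fell, again smaller shares than the 17.3% and 17.6% of all tested genes, and the median difference was 0.21. Pprc1, a coactivator related to PGC-1alpha, rose by 2.67 ± 0.48 (adjusted p = 0.0020) and Gabpb1, the beta subunit of the ETS factor GABP, by 1.92 ± 0.42 (adjusted p = 0.0056). Ppargc1a, which encodes PGC-1alpha itself, fell by 1.95 on the log2 scale (SE 0.34, adjusted p = 0.0016).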

How the data were processed

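Total RNA of sorted cells was prepared with a miRNeasy kit, amplified with a Nugen Pico kit and labelled with biotin, per the labels' protocols, and hybridised to 6 one-colour Affymetrix arrays of 45101 probe sets. The deposited values are log2 signals; per the submitters' processing notes the authors used MAS5. No MAS5 version and no detection calls are stated in the labels or the file. The linear mean, trimmed by 2% at each end, was 500.0 on every array. MAS5 values near background are noisy, and arrays limit precision by their number.

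Probe sets were named from the platform annotation and updated through Entrez IDs to RefSeq symbols (99.4% found): 34945 had 1 gene, 932 several and 9160 none, apart from 64 control probe sets. Each gene was read from its brightest probe set over all 6 arrays. Genes with a mean at or above the 40th percentile of all probe sets (log2 6.02) were fitted with limma 3.58.1 (lmFit, then eBayes with a variance trend over mean signal) in R 4.3.3, with no pseudocount, no covariates and a Benjamini-Hochberg threshold of 0.05, and the fit was tested on simulated data. Background is the 95th percentile of 27 bacterial control probe sets per array. Replicates are those of the labels, and p-values measure the spread between these arrays.

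Members and lists were chosen with earlier results of these data known. Every array is given for called members, for complex II and for paralogue families, and up to 3 called genes per direction are named from each other list; other markers and technical values describe the arrays. Aldehyde oxidase (Aox1) was put in the list of respiratory genes with other names by mistake and left out. Alternatives were quantile normalization, scaling to 18 hybridisation control probe sets, no dim filter or one at the 60th percentile, the mean of a gene's probe sets, no probe sets ending in _s_at, _x_at or _a_at, other variance models, a pseudocount of 16, values raised to background, a replicate block, and leaving out each array. These kept the probe set chosen on all 6 arrays, apart from the 2 probe set alternatives.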

Additional observations from a re-analysis of the deposited data

How the results depend on the processing

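Of the 24 called subunits, 9 were called in every one of the 17 alternatives that tested them: Ndufa3, Uqcrh, Cox5a, Cox6b1, Cox7a2, Atp5e, Atp5l, Atp5mpl and Atp5o. With each array left out in turn, 12 of the 21 higher calls and none of the 3 lower calls held in all 6 fits, and the count of higher subunits ranged between 12 and 26 and of lower subunits between 0 and 5. The medians then ranged between 0.22 and 0.41 for complex I, between 0.08 and 0.40 for complex IV and between 0.54 and 0.83 for complex V. Scaling to the hybridisation controls, which moved the median of all tested genes to 0.66, gave 39 higher and 0 lower subunits, with medians of 1.03, 0.33, 1.32, 0.90 and 1.27 for complexes I to V. Without a variance trend, 13 subunits were called higher and 2 lower. Quantile normalization gave 16 higher and 4 lower and a complex I median of 0.30. Probe sets ending in _s_at, _x_at or _a_at carried 17 of the 24 called subunits. Without them, 7 called subunits could not be tested and the complex II median was -0.05. Ndufb2 (-1.47, adjusted p = 0.0637) and Atp5g1 (-2.04, adjusted p = 0.0357) then reversed, so that Atp5g1 was called lower and Ndufb2 was not called. With the mean of all probe sets, which included 1 at or below background on all 6 arrays, Uqcrq reversed (-0.48) and was not called. The causes were not tested, beyond the fewer arrays or other probe sets that define these alternatives. Arrays of the same replicate number did not deviate together (r = 0.056, -0.025 and 0.029 for numbers 1 to 3). With 3 arrays per group this cannot show whether same-numbered samples were paired, and the labels give only the numbers. With a replicate block 21 subunits were called higher and 2 lower. Cox4i2, Cox7b2 and Cox8c were too dim for the filter, and without it Cox4i2 was called lower.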

Other observations

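Among the coding genes of the symbol rule without a probe set of their own, 4 shared theirs with near-identical copies, so the values below cannot be given to 1 gene and were not tested. The probe set shared by Ndufa11, of the proximal arm of complex I, and its copy Ndufa11b had log2 signals of 11.94, 11.50 and 12.55 on the activated arrays, against 8.73, 9.15 and 11.10 on the quiescent arrays, a difference of 2.33, while a dimmer one had a difference of -1.37. The 2 probe sets shared by Ndufb4, Ndufb4b and Ndufb4c had differences of 1.47 and 0.90, with all activated arrays above all quiescent arrays in both; the probe set of Ndufb4 alone had a difference of -0.17. The probe set shared by Ndufs6, of the N module, and Ndufs6b had a difference of 0.60, with signals of 12.14, 11.99 and 12.17 on the activated arrays, against 12.07, 11.52 and 10.91 on the quiescent arrays, which overlapped.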
